A study of Mus musculus with 13 samples.

Results

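The genotype by seizure interaction asks, gene by gene, how far the hippocampal response to status epilepticus (SE) in mice with Lin28a deleted differed from the response in mice with Lin28a intact, and it used all 13 of the 13 libraries of the series. There were 3 SE-cKO, 3 SE-WT, 4 sham-cKO and 3 sham-WT libraries, each labelled as a biological replicate, where WT stands for Nestin-Cre::Lin28a+/+ and cKO for Nestin-Cre::Lin28aloxP/loxP. Both genotypes carried Nestin-Cre, so that a mouse without Cre was in no group. Hippocampi were taken 3 days after saline (sham) or pilocarpine, a muscarinic agonist given to mice 6 weeks old at a dose set by sex (260 mg/kg for males, 280 mg/kg for females). Scopolamine methyl nitrate and terbutaline preceded pilocarpine, diazepam ended the convulsions, and mice that did not enter SE were not carried forward. The SE response of a gene is the log2 fold change between SE and sham in 1 genotype, and the interaction is the response in cKO minus the response in WT. A positive interaction therefore means a larger rise, a smaller fall or a turn from fall to rise in cKO, and a negative interaction the reverse.

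LIN28A is an RNA-binding protein of early progenitors that keeps let-7 microRNA precursors from being processed. Nestin-Cre acts in neural progenitors from embryonic life, so neurons, astrocytes and oligodendrocytes carry the deletion, whereas microglia come from another lineage. In the days after SE, astrocytes enlarge and fill with intermediate filaments, microglia become phagocytic, glial cells divide, vessels and matrix are remodelled, and neurons change their channels and receptors.

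Lin28a itself had 0 counts in 12 of the 13 libraries and 3 counts in SE-WT replicate 3, and 3 counts, the limit that a count of 0 allows for counting error alone, correspond to 0.0364 to 0.0506 CPM (counts scaled to library size). The deletion could therefore not be checked from this gene at this depth, which was 59659977 to 84354243 counts per library. The dentate marker Prox1 was found in every library at 17.4 to 114 CPM. The granule cell gene Tdo2 was at 4.52 to 8.75 CPM in sham libraries and 0.129 to 1.85 CPM in SE libraries. Libraries of 1 group differed by 51.5 to 472 times the variance that counting alone gives, and no 2 were copies. Some libraries stood apart. Mitochondrial ribosomal RNA made up 4.83% of counts in SE-WT replicate 3 and 3.92% in SE-cKO replicate 3 against 0.486% to 1.66% elsewhere, and the titles of these libraries follow another pattern. Relative to the mean of the sham libraries, the level of 12 striatal genes was 4.33 on the log2 scale in SE-WT replicate 2, and that of 12 thalamic genes was 2.52 in the third SE-WT library and 3.13 in sham-cKO replicate 2. The level of 12 choroid plexus genes ran from -2.69 in sham-cKO replicate 1 to 3.31 in sham-WT replicate 3. Sex is not labelled, and Xist, the RNA of the inactive X chromosome, was at 176 to 511 CPM in 2 of 3 sham-WT, 1 of 4 sham-cKO, 1 of 3 SE-WT and 2 of 3 SE-cKO libraries and at 0 to 2.96 CPM in the rest, so that the share of libraries with high Xist was lower after SE in WT and higher after SE in cKO. In whole hippocampus, more cells of a type and more RNA per cell cannot be told apart.

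Of 22596 genes tested by edgeR's quasi-likelihood test, 36 (0.159%) had a called interaction at an adjusted p under 0.05, 19 positive (0.0841%) and 17 negative (0.0752%). Before adjustment, 2834 genes (12.5%) had a p under 0.05, 1404 of them positive and 1430 negative. In the same fit, SE raised 1405 (6.22%) and lowered 368 (1.63%) genes in WT, 7.85% in all, and raised 3259 (14.4%) and lowered 1812 (8.02%) in cKO, 22.4% in all. Between SE-cKO and SE-WT 162 genes (0.717%) differed. Among the 36 genes, 21 responded in the same direction in both genotypes and more strongly in cKO, 0 responded in the same direction and less strongly in cKO, and 15 had fitted responses of opposite sign. A weaker response in cKO was thus not among the calls of edgeR, while DESeq2 placed 13 of its 731 called genes there (4.05% of genes called, 2.03% positive and 2.02% negative) and limma voom 1 of its 41 (0.181% called, 0.0885% positive and 0.0929% negative). Most opposite pairs had a rise in WT that did not pass its own test, and the WT and cKO responses were both called, with opposite signs, in 3 of the 15.

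The adjusted p of the 36 genes lay between 0.0418 and 0.0493, close under the threshold, and the next genes were Odc1, the first enzyme of polyamine synthesis, at 0.0507 and Fgf14, an intracellular partner of sodium channels, at 0.056. The number of calls depended on single libraries. By edgeR, 0 genes were called when any 1 of 7 libraries was left out (each sham-WT library, sham-cKO replicates 1, 3 and 4, and SE-cKO replicate 2), although 2379 to 2780 genes then had an unadjusted p under 0.05. The count was 4 when sham-cKO replicate 2 was left out. Among the SE-WT libraries, leaving out replicate 1 gave 56, replicate 2 gave 5 and replicate 3 gave 59. Among the SE-cKO libraries, leaving out replicate 1 gave 25 and replicate 3 gave 177. All 36 genes kept the sign of their interaction with any 1 library left out, and the 177 calls held all 36. The choice of genes by the interaction in these libraries nearly fixes the sign, so nothing is read from it.

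**Figure D1:**
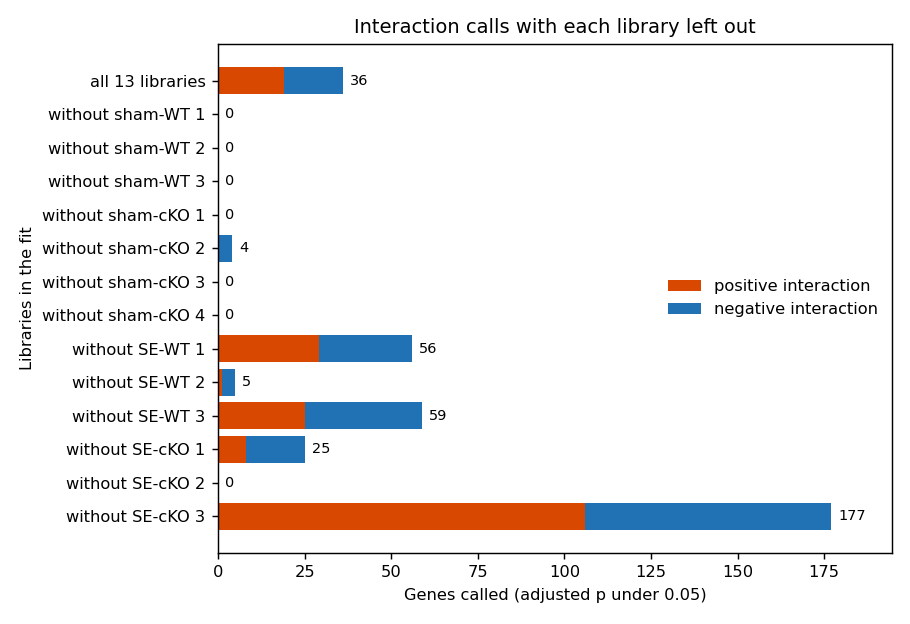
Number of genes with a called interaction (adjusted p under 0.05, edgeR; horizontal axis) in the fit of all 13 libraries and with each library left out in turn (vertical axis), split by sign. The count is 36 with all libraries, 0 without any 1 of 7 libraries, and 177 without SE-cKO replicate 3.

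The 33 genes counted below, of which 32 are described, are the called genes with a mean of at least 1 CPM in their highest group, less 1 predicted gene, 1 uncharacterized locus and 1 clone name. In all 33 the SE-cKO libraries did not overlap the SE-WT libraries, which held for 14.5% of all genes tested, and the difference between genotypes was larger after SE than in sham. The choice of genes by the interaction in these libraries nearly fixes both, so nothing is read from them. The sham libraries of the genotypes did not overlap in 11 of the 33, against 7.37% of all genes. The choice of genes favours this count too, because the sham difference is part of the interaction. In 31 of the 33 the sham difference was opposite in sign to the interaction, which the choice of genes favours because a sham difference enters the interaction with its sign turned. By edgeR, 0 genes differed between sham-cKO and sham-WT, with 668 at an unadjusted p under 0.05 and 27 called by DESeq2.

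**Figure D2:**
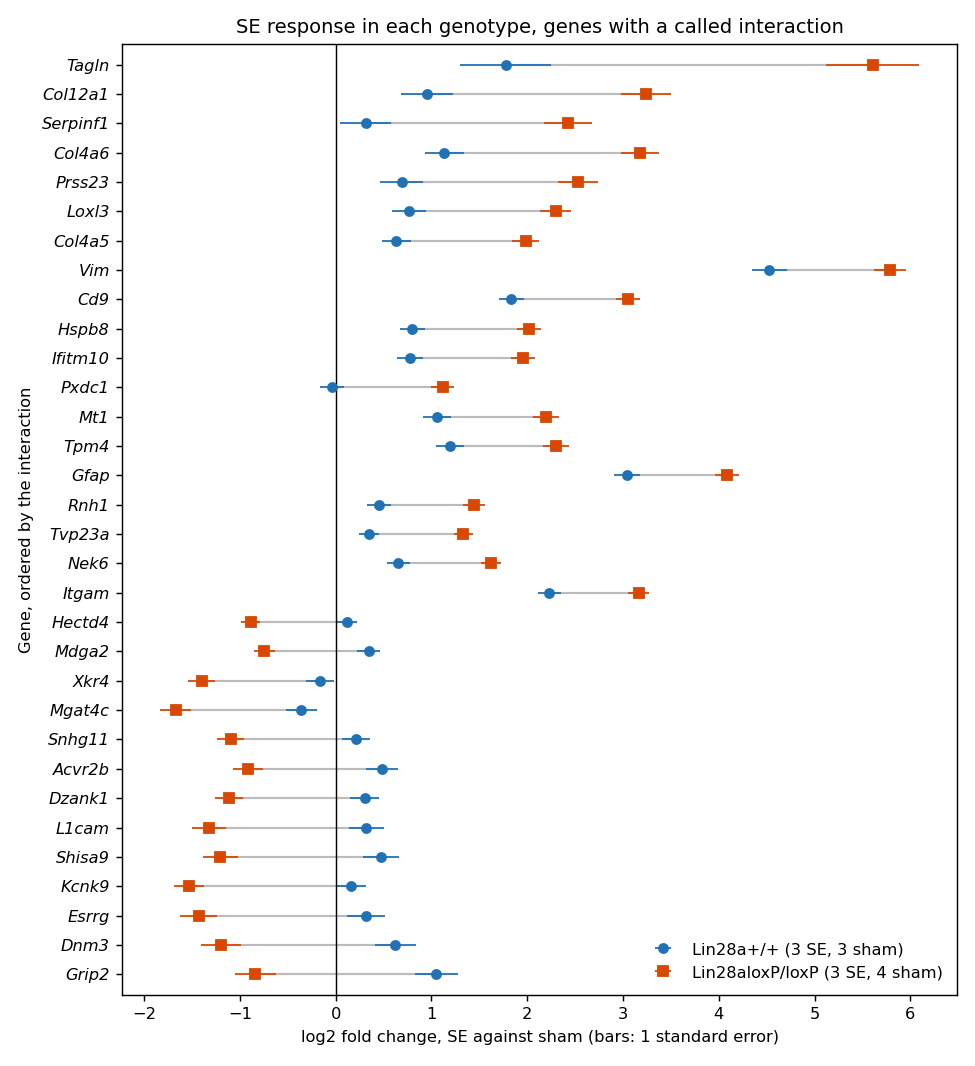
SE response in Lin28a+/+ (circles, 3 SE and 3 sham libraries) and Lin28aloxP/loxP mice (squares, 3 SE and 4 sham libraries) on the log2 scale for the 32 genes described, ordered by the interaction, with bars of 1 standard error. All 19 genes with a positive interaction rose in cKO, and all 13 with a negative interaction fell in cKO while 11 of them lay above 0 in WT.

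The genes with a positive interaction included the intermediate filaments of reactive astrocytes and surface proteins of microglia, which rose in both genotypes and rose further in cKO. Gfap, the filament protein that marks reactive astrocytes, lies on chromosome 11 from 102887336 to 102897200 of GRCm38. It stood at 298, 358 and 326 CPM in sham-WT, 286, 275, 229 and 312 CPM in sham-cKO, 2792, 2695 and 2601 CPM in SE-WT and 4733, 4360.2 and 4972 CPM in SE-cKO. The lowest SE-cKO library was above the highest SE-WT library, and the sham libraries of the genotypes overlapped. The response was 3.04 in WT (standard error 0.14) and 4.09 in cKO (standard error 0.13), and over 30 alternatives the interaction ran from 0.93 to 1.12. Vim, the filament protein of immature and reactive astrocytes, stood at 38.8, 28.5 and 34.6 CPM in sham-WT, 27.7, 23.2, 31.7 and 28.4 CPM in sham-cKO, 873, 690.1 and 789 CPM in SE-WT and 1348, 1753 and 1491 CPM in SE-cKO. Its response was the largest of the 33 in both genotypes, 4.53 in WT and 5.78 in cKO. Nes, the progenitor filament that reactive astrocytes also express, had an interaction of 1.37 that did not pass the test (adjusted p = 0.176 by edgeR).

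Itgam, the integrin subunit CD11b of microglia and myeloid cells, was at 19.5, 20.5 and 21.1 CPM in sham-WT, 20.2, 17.8, 17.8 and 20.0 CPM in sham-cKO, 109.8, 83.6 and 93.9 CPM in SE-WT and 162, 179 and 169 CPM in SE-cKO. The sham groups overlapped and the SE groups did not. Its interaction of 0.93 (standard error 0.15, adjusted p = 0.0433 by edgeR) was 0.68 without the 3 libraries with high striatal or thalamic levels. Cd9, a tetraspanin of glial membranes, was at 42.7, 33.9 and 35.6 CPM in sham-WT, 28.4, 34.0, 33.0 and 27.5 CPM in sham-cKO, 142, 124 and 135 CPM in SE-WT and 242, 284 and 239 CPM in SE-cKO. The SE-cKO libraries all exceeded the SE-WT libraries, and the response was 1.83 in WT and 3.05 in cKO. Axl, a receptor for phagocytosis of dying cells, fell just outside the threshold with an interaction of 0.68 (adjusted p = 0.0589 by edgeR), and it stood at 70.1, 62.6 and 70.9 CPM in SE-WT and 110.5, 108 and 111 CPM in SE-cKO. The interaction of Cd151, another tetraspanin, was 0.93 (adjusted p = 0.0789 by edgeR).

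Collagens and enzymes of the extracellular matrix formed the next group. Col4a5 and Col4a6 encode chains of type IV collagen, the network of basement membranes, and are neighbours that point away from each other on the X chromosome: Col4a6 lies from 141165403 to 141474095 on the minus strand and Col4a5 from 141475370 to 141689236 on the plus strand, with 1274 bases between the genes. Their promoter windows, 250 bases before to 50 bases after an annotated start (RefSeq, GRCm38.p6), are shown because both genes of the pair were called with the same sign. The Col4a6 window is chrX:141474027-141474326 (minus strand) and the Col4a5 window is chrX:141475169-141475468 (plus strand), each read from 5′ to 3′ along its gene.
Col4a6: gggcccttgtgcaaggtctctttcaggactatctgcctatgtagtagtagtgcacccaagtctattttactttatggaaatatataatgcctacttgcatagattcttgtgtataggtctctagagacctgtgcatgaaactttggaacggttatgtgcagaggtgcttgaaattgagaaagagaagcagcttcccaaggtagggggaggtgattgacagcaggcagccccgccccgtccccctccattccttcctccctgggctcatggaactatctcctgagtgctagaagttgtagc
Col4a5: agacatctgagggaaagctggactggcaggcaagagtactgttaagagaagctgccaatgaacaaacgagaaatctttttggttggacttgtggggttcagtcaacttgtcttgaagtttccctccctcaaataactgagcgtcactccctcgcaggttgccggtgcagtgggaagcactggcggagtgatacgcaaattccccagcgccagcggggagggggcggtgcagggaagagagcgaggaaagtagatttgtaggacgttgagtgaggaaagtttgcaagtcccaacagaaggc

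Col4a6 stood at 3.91, 3.15 and 4.84 CPM in sham-WT, 3.98, 3.28, 2.83 and 2.46 CPM in sham-cKO, 8.82, 9.09 and 8.24 CPM in SE-WT and 25.2, 32.3 and 27.6 CPM in SE-cKO. Every SE-cKO library was far above every SE-WT library. The response was 1.14 in WT and 3.18 in cKO, an interaction of 2.04 (standard error 0.28, adjusted p = 0.0418 by edgeR). Col4a5 stood at 10.97, 8.67 and 11.8 CPM in sham-WT, 11.9, 9.08, 10.2 and 8.36 CPM in sham-cKO, 16.7, 15.8 and 16.2 CPM in SE-WT and 40.8, 35.7 and 40.8 CPM in SE-cKO. The pattern was that of Col4a6 at a smaller size, with responses of 0.63 and 1.98. Both genes are X-linked, and with the Xist level as a covariate the interactions were 2.00 for Col4a6 and 1.38 for Col4a5.

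Col12a1, a collagen that coats fibrils, was at 37.6, 34.7 and 27.9 CPM in SE-WT and 95.7, 189 and 241 CPM in SE-cKO, and its sham libraries lay between 13.3 and 21.5 CPM. Its SE-cKO libraries spread over more than 2-fold, yet the lowest was above all SE-WT libraries, and the interaction was 2.29 (standard error 0.37). Loxl3, a cross-linking enzyme of the lysyl oxidase family, ranged over 12.2 to 13.2 CPM in SE-WT and 22.4 to 34.9 CPM in SE-cKO, with an interaction of 1.53. Serpinf1, the secreted factor PEDF, was at 11.8, 7.99 and 11.1 CPM in sham-WT, 11.4, 13.2, 8.12 and 6.88 CPM in sham-cKO, 13.7, 8.88 and 15.8 CPM in SE-WT and 44.2, 59.7 and 55.6 CPM in SE-cKO. The SE-cKO libraries stood far above all others, and SE-WT replicate 3 only slightly above the highest sham library: the WT response of 0.31 was not called (adjusted p = 0.566 by edgeR) and the cKO response was 2.43. Prss23, a secreted serine protease, was at 14.9 to 16.3 CPM in sham-WT and 11.3 to 17.8 CPM in sham-cKO, with 17.8 to 31.4 CPM in SE-WT, 64.1 to 93.2 CPM in SE-cKO and an interaction of 1.84.

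Tagln, the actin-binding protein transgelin of smooth muscle and activated fibroblasts, had the largest interaction of the 33. It stood at 4.54, 1.52 and 4.37 CPM in sham-WT, 3.65, 1.91, 2.55 and 1.49 CPM in sham-cKO, 20.7, 7.28 and 7.76 CPM in SE-WT and 116, 135 and 102 CPM in SE-cKO. The SE-cKO libraries lay close together, while SE-WT replicate 1 was more than 2-fold above the other SE-WT libraries. The response was 1.77 in WT and 5.61 in cKO, and the interaction ran from 2.90 without the 3 libraries with high striatal or thalamic levels to 4.49 without SE-WT replicate 1. Tpm4, a tropomyosin of the actin cytoskeleton, was at 86.9, 65.1 and 65.6 CPM in SE-WT and 143, 147 and 145 CPM in SE-cKO, with responses of 1.19 and 2.30. Among smooth muscle genes, Acta2 and Myl9 had interactions of 1.53 and 1.76 that edgeR did not call, and DESeq2 called Myl9 (adjusted p = 0.00289). The Myl9 value was 1.14 with striatal and thalamic levels as covariates. The whole list of 20 smooth muscle and pericyte genes had a median of 0.39, with 16 above 0 and 4 below. Its median level relative to sham overlapped, at -0.30 to 0.54 in SE-WT and 0.30 to 0.82 in SE-cKO.

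**Figure D3:**
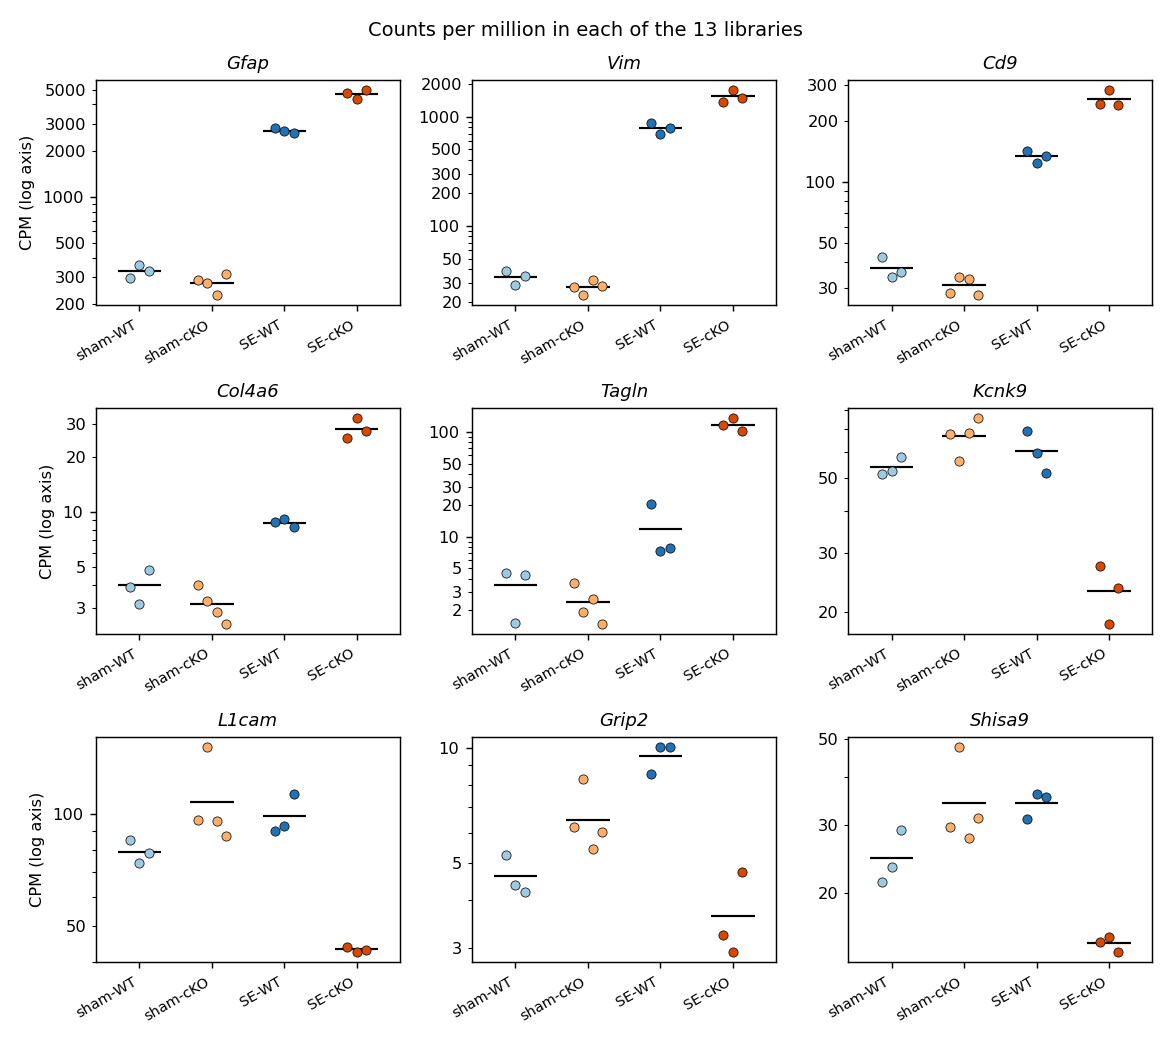
CPM of 9 genes (log axes) in each of the 13 libraries, by group, with a line at the group mean. Gfap, Vim, Cd9, Col4a6 and Tagln were highest in the SE-cKO libraries, whereas Kcnk9, L1cam, Grip2 and Shisa9 had their lowest group mean there. No SE-cKO library overlapped the SE-WT libraries in any of the 9, which the choice of genes by the interaction nearly fixes.

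The other genes with a positive interaction included stress proteins. Hspb8, a small heat shock protein that helps clear misfolded proteins, was at 19.2, 16.5 and 22.1 CPM in sham-WT, 15.6, 14.4, 15.4 and 12.9 CPM in sham-cKO, 32.6, 37.5 and 30.6 CPM in SE-WT and 59.0, 60.4 and 58.0 CPM in SE-cKO. All sham-cKO libraries lay below the sham-WT libraries and all SE-cKO libraries above the SE-WT libraries, so the order of the genotypes turned with SE. The difference of cKO from WT was -0.40 in sham and 0.82 after SE, and the interaction is the second minus the first. Mt1, the metal-binding protein metallothionein 1, responded by 1.06 in WT and 2.20 in cKO, from 105 to 128 CPM in sham-WT and 103 to 109.9 CPM in sham-cKO. Rnh1, the inhibitor of ribonucleases, responded by 0.45 and 1.44. Nek6, a mitotic kinase, responded by 0.66 and 1.62, and Ifitm10, a member of the interferon-induced transmembrane family, by 0.78 and 1.96. Tvp23a, a Golgi membrane protein, responded by 0.35 in WT, which was not called (adjusted p = 0.0608 by edgeR), and by 1.33 in cKO.

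Pxdc1 was the 1 gene with a positive interaction whose responses had opposite signs. It stood at 9.23, 9.82 and 8.87 CPM in sham-WT, 9.27, 8.07, 8.78 and 10.3 CPM in sham-cKO, 8.80, 9.45 and 8.90 CPM in SE-WT and 19.9, 20.2 and 19.1 CPM in SE-cKO. The sham and SE-WT libraries shared 1 range and only the SE-cKO libraries were above it. The WT response of -0.041 was not called, so that the rise of 1.12 in cKO made up the interaction (adjusted p = 0.0418 by edgeR).

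The 14 named genes with a negative interaction fell in cKO, all 14 past the test, while 1 of the 14 had a called response in WT. Kcnk9, the 2-pore potassium channel TASK-3 that holds the resting potential, had the smallest p of all genes tested. It was at 51.5, 52.4 and 57.7 CPM in sham-WT, 67.8, 56.2, 68.3 and 75.3 CPM in sham-cKO, 69.1, 59.5 and 51.9 CPM in SE-WT and 27.4, 18.4 and 23.5 CPM in SE-cKO. The first 3 groups overlapped, and all SE-cKO libraries lay below them. The response was 0.16 in WT and -1.53 in cKO, with an interaction of -1.69 (standard error 0.22, adjusted p = 0.0418 by edgeR) that was -1.99 without the 3 libraries with high striatal or thalamic levels. Shisa9, an auxiliary subunit of AMPA receptors, was at 31.1, 36.0 and 35.4 CPM in SE-WT and 14.9, 15.4 and 14.1 CPM in SE-cKO. Its sham-cKO libraries ranged over 27.7 to 47.8 CPM, with the highest value in replicate 2, which was high in thalamic genes, and the interaction of -1.68 was -1.36 without the 3 libraries.

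Grip2, a scaffold that anchors AMPA receptors at synapses, was the 1 named gene whose responses were both called with opposite signs. It stood at 5.25, 4.39 and 4.20 CPM in sham-WT, 6.21, 8.29, 5.43 and 6.03 CPM in sham-cKO, 8.53, 10.1 and 10.1 CPM in SE-WT and 3.24, 2.92 and 4.73 CPM in SE-cKO. SE-WT was above sham-WT in every library, and SE-cKO below sham-cKO in every library. Grip2 rose by 1.05 in WT (adjusted p = 0.0125) and fell by 0.84 on the log2 scale in cKO (adjusted p = 0.0129, both by edgeR). Acvr2b, a receptor for activins, had fitted responses of 0.48 in WT, not called, and -0.92 in cKO. Dnm3, a dynamin of synaptic endocytosis, had responses of 0.62, not called, and -1.20, and its interaction moved from -1.82 to -1.31 without the 3 libraries with high striatal or thalamic levels.

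L1cam, an X-linked adhesion molecule of growing axons, was at 85.5, 73.8 and 78.5 CPM in sham-WT, 96.6, 152, 95.7 and 87.4 CPM in sham-cKO, 90.0, 92.8 and 114 CPM in SE-WT and 43.9, 42.5 and 43.2 CPM in SE-cKO. The SE-cKO libraries lay close together and below every other library, while sham-cKO replicate 2 stood above all others. The interaction of -1.64 was -1.32 without the 3 libraries with high striatal or thalamic levels and -1.52 with the Xist level as a covariate. Mdga2, an adhesion molecule that limits the partners of neuroligins, ranged over 63.0 to 73.0 CPM in sham-WT, 82.1 to 95.3 CPM in sham-cKO, 73.6 to 98.3 CPM in SE-WT and 49.4 to 55.5 CPM in SE-cKO. Its genotypes did not overlap in sham or after SE, and their order turned with SE.

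Xkr4, a member of the family of lipid scramblases, and Mgat4c, a glycosyltransferase, had fitted responses below 0 in both genotypes, called in cKO alone, of -0.16 and -1.40 for Xkr4 and of -0.36 and -1.67 for Mgat4c. Esrrg, an orphan nuclear receptor of neurons, had responses of 0.31 and -1.43. Hectd4, a ubiquitin ligase, was at 349 to 393 CPM in SE-WT and 211 to 233 CPM in SE-cKO, with responses of 0.11 and -0.89. Dzank1, a zinc finger and ankyrin repeat protein, responded by 0.30 and -1.12, and Snhg11, a host gene of small nucleolar RNAs, by 0.22 and -1.10.

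For the 33 genes as a whole, the sign of the interaction was the same without the 3 libraries with high striatal or thalamic levels, although no gene was then called by edgeR (2446 had an unadjusted p under 0.05), and 25 of the 33 became smaller in size. With the Xist level as a covariate all 33 kept their sign, 19 became smaller and 0 were called by edgeR (2853 at an unadjusted p under 0.05). In both fits the choice of genes by the interaction in these libraries favours a kept sign. The part of neighbouring tissue and of sex in these interactions was not tested beyond these fits.

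Among lists of genes with a common function, those of reactive glia, proliferation and matrix had positive medians and those of neuronal channels and receptors negative ones. Over all genes tested the median interaction was 0.027, 51.9% were fitted above 0 and edgeR called 0.0841% as positive. These lists were chosen with earlier results known, so they are described by counts and medians. Among 30 genes of reactive astrocytes, 28 were fitted above 0 with a median of 1.03, and 2 were called, Gfap and Vim. The list level is the median over its genes of log2 CPM relative to the mean of the sham libraries. It was 2.28 to 3.19 in SE-WT and 3.69 to 4.19 in SE-cKO, without overlap. S1pr3, a sphingosine phosphate receptor, had an interaction of 1.49 and Tnc, the matrix protein tenascin C, of 1.97, neither called by edgeR and both called by DESeq2. In all DESeq2 called 7 of the 30 astrocyte genes, against 2.03% of all genes called by it as positive.

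All 29 genes of cell proliferation were fitted above 0, with a median of 1.03, and 16 had an unadjusted p under 0.05, against 6.21% of all genes. None was called by edgeR or limma voom, and 6 were called by DESeq2, against 2.03% of all genes called by it as positive. Mki67, the antigen Ki-67 of dividing cells, was at 55.5, 47.3 and 42.6 CPM in SE-WT and 91.8, 196 and 69.7 CPM in SE-cKO, from 2.63 to 5.78 CPM in sham libraries, and its interaction was 1.58 (standard error 0.46, adjusted p = 0.19 by edgeR). All 3 SE-cKO libraries were above the SE-WT libraries. Plk1, a mitotic kinase, had an interaction of 2.07, and Mcm6, a subunit of the replication helicase, of 1.14, with a WT response of 0.09 that was not called and a cKO response of 1.23.

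Of 26 genes of activated microglia and phagocytes 23 were fitted above 0, with a median of 0.84. By edgeR 1 of the 26, Cd9, was called, against 0.0841% of all genes called positive. A positive interaction at an unadjusted p under 0.05 was found in 10 of the 26, against 6.21% of all genes, and DESeq2 called 4, against 2.03%. Their level was 3.08 to 4.31 in SE-WT and 4.65 to 4.92 in SE-cKO. The 20 homeostatic microglia genes had a median of 0.46 and overlapping SE levels, with 0 called by edgeR or limma voom, 7 of the 20 positive at an unadjusted p under 0.05 and 4 called by DESeq2, against the same shares. Of 17 complement genes 14 were fitted above 0, with a median of 0.74 and 1 called, Itgam, against 0.0841% of all genes. C3, the central complement protein, was at 15.3, 10.1 and 9.07 CPM in SE-WT and 50.7, 56.6 and 20.0 CPM in SE-cKO, with responses of 2.89 and 6.01 and an interaction that was not called (adjusted p = 0.128 by edgeR). The 9 genes of MHC class I had a median of 0.81, which was 0.38 without the 3 libraries with high striatal or thalamic levels and 0.50 with those levels as covariates. The 20 interferon-response genes were all fitted above 0 with a median of 0.52, which was -0.34 without the same 3 libraries. Neither list had a gene called by any of the 3 tools, with 3 and 1 positive genes at an unadjusted p under 0.05, against 6.21% of all genes.

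All 22 genes of fibroblasts and extracellular matrix were fitted above 0, with a median of 0.99. By edgeR 1 of the 22, Col12a1, was called, against 0.0841% of all genes called positive. The level of the 22 genes was 0.13 to 1.04 in SE-WT and 1.33 to 1.66 in SE-cKO. Fn1, the matrix protein fibronectin, was at 154, 56.7 and 78.6 CPM in SE-WT and 367, 659 and 311 CPM in SE-cKO, with an interaction of 2.27 that edgeR did not call (DESeq2 adjusted p = 0.00504) and that was 1.35 without the 3 libraries. Of the heat shock list 11 of 15 were above 0 and Hspb8 was called, against the same 0.0841% of all genes. Serpinh1, the collagen chaperone HSP47, had 1.30 (adjusted p = 0.0789 by edgeR). Of 18 S100 proteins, annexins and galectins 17 were above 0, with a median of 0.92. All 27 cytosolic ribosomal protein genes were above 0 with a smaller median of 0.38. The last 2 lists had 0 genes called by edgeR or limma voom. They had 9 and 6 positive genes at an unadjusted p under 0.05, against 6.21% of all genes. DESeq2 called 5 and 0 as positive, against 2.03%. As levels of other cells that the tissue could hold, the 11 tested neutrophil and monocyte genes were at -1.005 to 0.68 in SE-WT and 1.55 to 3.72 in SE-cKO, with 0 called by edgeR and 0 at an unadjusted p under 0.05, and their part in the immune lists was not tested.

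Neuronal channels and receptors lay on the negative side. Of 33 voltage-gated channel genes 31 were fitted below 0, with a median of -0.83, and 15 had a negative interaction at an unadjusted p under 0.05, against 6.33% of all genes. The level was -0.23 to -0.016 in SE-WT and -0.80 to -0.42 in SE-cKO. Kcnq3, a subunit of the M current, was at 184, 188 and 205 CPM in SE-WT and 97.7, 121 and 125 CPM in SE-cKO, with an interaction of -1.15 that was not called (adjusted p = 0.112 by edgeR). Scn1a, the sodium channel of fast-spiking interneurons, had responses of -0.20 in WT and -1.48 in cKO. No gene of the list was called by edgeR or limma voom, and 7 were called by DESeq2, against 2.02% of all genes called by it as negative. The median was -0.86 without the 3 libraries with high striatal or thalamic levels.

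Of 17 ionotropic glutamate receptor genes 16 were below 0, with a median of -0.61; edgeR called 0, with 9 at an unadjusted p under 0.05, limma voom 1 and DESeq2 7, where 6.33% of all genes were negative at that p and 2.02% were called negative by DESeq2. Grin3a, an NMDA receptor subunit, was at 53.5, 52.3 and 59.0 CPM in sham-WT, 72.1, 73.5, 73.2 and 60.9 CPM in sham-cKO, 52.9, 57.3 and 57.3 CPM in SE-WT and 42.9, 28.1 and 24.7 CPM in SE-cKO. Every sham-cKO library was above the sham-WT libraries, and the Grin3a interaction of -1.16 was not called by edgeR. Gria4, an AMPA receptor subunit, had responses of 0.086 in WT and -1.01 in cKO. Of 21 GABA and glycine receptor genes 17 were below 0, with a median of -1.08. It was -0.62 without the 3 libraries with high striatal or thalamic levels and -0.64 without SE-WT replicate 3 alone; edgeR and limma voom called 0, with 13 negative at an unadjusted p under 0.05, and DESeq2 4, against the same shares of all genes. The 18 genes of GABAergic interneurons had a median of -0.83, although Npy, the neuropeptide Y of interneurons, was on the positive side, at 58.9, 42.0 and 30.8 CPM in SE-WT and 64.1, 97.8 and 112 CPM in SE-cKO (interaction 1.49, adjusted p = 0.169 by edgeR). General neuronal genes had a median of -0.36 over 18 genes, 17 of them below 0. These 2 lists had 0 genes called by edgeR or limma voom, with 8 and 4 at an unadjusted p under 0.05 and 3 and 1 called by DESeq2, where 12.5% and 4.05% of all genes were so in either direction. Of the neighbouring tissues, all 12 striatal and all 12 thalamic genes were fitted below 0, with medians of -3.999 and -3.46; without the 3 libraries the medians were -0.64 and 0.26.

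**Figure D4:**
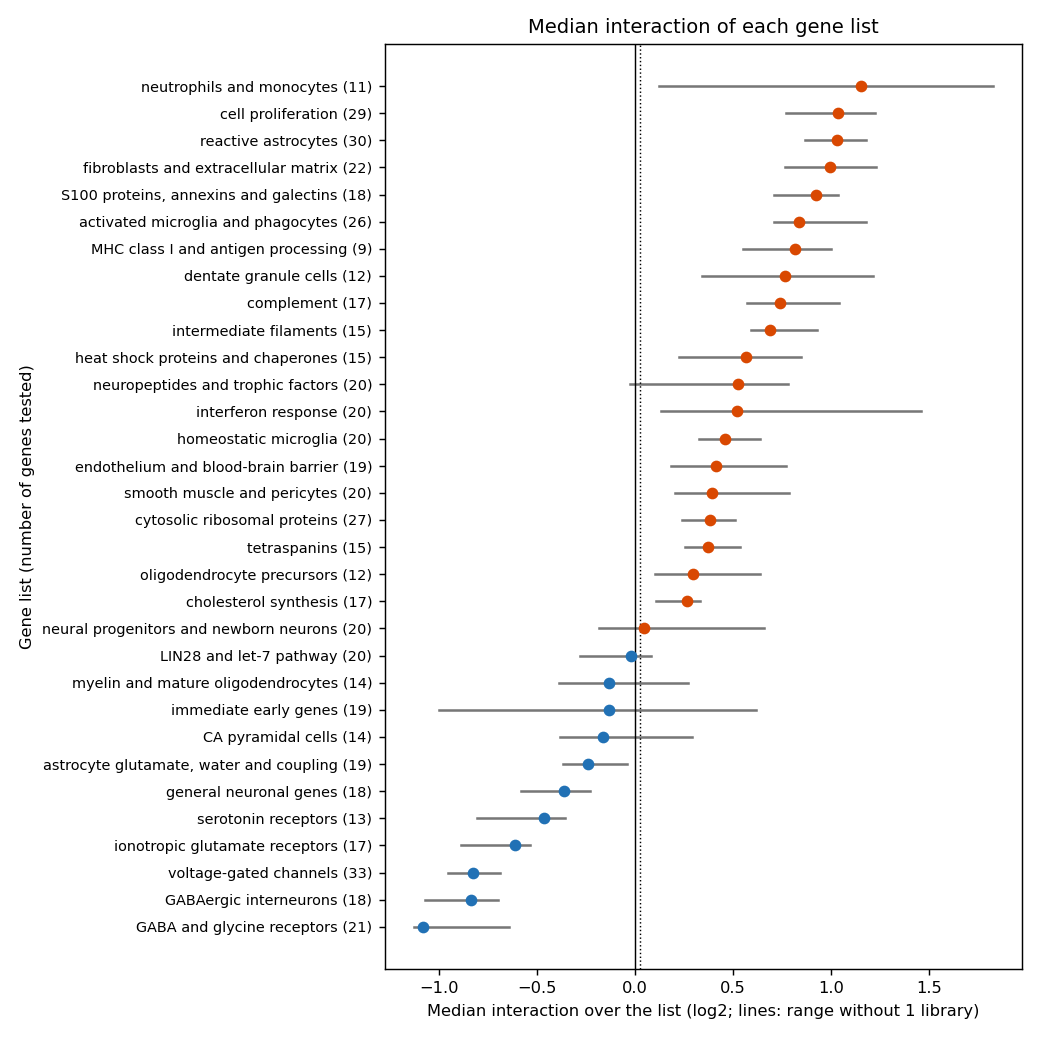
Median interaction (log2, horizontal axis) of 32 gene lists with the number of genes tested, with lines from the lowest to the highest median when 1 library is left out; the dotted line is the median of all genes, 0.027. Lists of proliferation, reactive astrocytes and matrix lie near 1, and lists of channels, interneurons and GABA and glycine receptors lie between -1.08 and -0.83, on the same side of 0 without any 1 library.

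Of the 36 lists, 25 kept the sign of their median in all 27 alternatives. In this paragraph, those that did not were astrocyte glutamate, water and coupling, CA pyramidal cells, immediate early genes, myelin, neuropeptides and erythrocytes. Their medians reached 0.042, 0.29, 0.62, 0.75, -0.31 and 0.25, in the same order. Astrocyte genes for glutamate, water and coupling had a median of -0.24 over 19 genes, CA pyramidal cell genes -0.17 over 14, immediate early genes -0.13 over 19 and myelin genes -0.13 over 14. On the positive side were smooth muscle and pericytes at 0.39 with Tagln called, endothelium at 0.41, tetraspanins at 0.37 with Cd9 called, intermediate filaments at 0.69 with Gfap and Vim called, oligodendrocyte precursors at 0.30, neuropeptides and trophic factors at 0.53 and cholesterol synthesis at 0.26. Over all genes edgeR called 0.0841% as positive, and Cd9, Gfap and Vim are the same calls already counted in the glial lists. Choroid plexus genes had a median of 1.99 over 12 genes, which ran from 0.007 without SE-cKO replicate 1 to 4.63 without sham-cKO replicate 3, and erythrocyte genes -0.82 over 5, with 0 called by any of the 3 tools and 0 at an unadjusted p under 0.05.

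Markers of granule and newborn cells were looked at because the deletion acts in progenitors. Of 12 dentate granule genes 9 were above 0 with a median of 0.76, which was 0.18 with striatal and thalamic levels as covariates and 0.34 without SE-WT replicate 2. The level was -2.01 to -0.33 in SE-WT and -0.47 to -0.21 in SE-cKO, which overlapped. Prox1, the transcription factor of granule cells, was at 21.1, 17.4 and 92.7 CPM in SE-WT and 61.5, 98.1 and 95.5 CPM in SE-cKO, so that SE-WT replicate 3 lay within the SE-cKO range. The 20 genes of neural progenitors and newborn neurons had a median of 0.044, and Dcx, the microtubule protein of newborn neurons, an interaction of -0.86 (adjusted p = 0.407 by edgeR). In both lists edgeR and limma voom called 0 genes, 3 and 4 genes had an unadjusted p under 0.05, and DESeq2 called 1 each. Over all genes 12.5% had such a p and 4.05% were called by DESeq2, in either direction. The 20 tested genes of the LIN28 and let-7 pathway had a median of -0.022, 10 on each side of 0. Among them 0 were called by edgeR or limma voom, 3 had an unadjusted p under 0.05 and DESeq2 called 1, against the same shares. Lin28b, the paralog of Lin28a, was at 3.57, 3.31 and 2.92 CPM in sham-WT, 3.995, 12.4, 5.16 and 4.96 CPM in sham-cKO, 5.24, 13.7 and 6.84 CPM in SE-WT and 3.39, 1.36 and 2.89 CPM in SE-cKO. The highest values were in the libraries highest in thalamic and in striatal genes, and the interaction of -2.77 (adjusted p = 0.135 by edgeR, 0.00302 by DESeq2) was -1.59 without the 3 libraries.

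Among 13 serotonin receptor genes 10 were below 0, with a median of -0.47. Htr4, a receptor that raises cyclic AMP, was on the other side. It was at 23.5, 28.1 and 33.9 CPM in sham-WT, 28.5, 20.7, 29.4 and 29.1 CPM in sham-cKO, 12.5, 15.3 and 21.8 CPM in SE-WT and 22.4, 42.7 and 51.8 CPM in SE-cKO. SE-WT lay below sham-WT, and SE-cKO replicate 1 below sham-cKO replicates 1, 3 and 4. Neither response was called (-0.78 in WT, 0.53 in cKO), and the interaction was 1.32 (standard error 0.39; adjusted p = 0.192 by edgeR and 0.0389 by DESeq2). The interaction was -1.10 for Htr2c and -1.75 for Htr1b, with standard errors of 0.89 and 0.89, and both turned in sign without the 3 libraries with high striatal or thalamic levels, to 0.20 and 0.043. Htr1b stood at 4.75, 41.9 and 10.04 CPM in SE-WT, highest in replicate 2, the library with the high striatal level. Htr2c was at 20.8, 43.9 and 76.6 CPM in sham-WT, 33.3, 49.7, 81.7 and 21.8 CPM in sham-cKO, 15.7, 59.6 and 41.1 CPM in SE-WT and 33.7, 11.1 and 8.87 CPM in SE-cKO. In sham-WT, sham-cKO and SE-cKO its highest library was also the highest in choroid plexus genes, and in SE-WT it was not. The part of choroid plexus in these values was not tested. No gene of the list was called by edgeR or limma voom, 3 had an unadjusted p under 0.05, and DESeq2 called 1, Htr4. Over all genes 12.5% had such a p and 4.05% were called by DESeq2.

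Most genes that rose after SE rose more in cKO, and the order was less stable among genes that fell. Of 3544 genes whose mean response over the genotypes rose past the test, 81.7% rose more in cKO, with a median interaction of 0.46, and of 2088 whose mean response fell, 70.5% fell more in cKO, with a median of -0.17. In the 1665 genes with a mean response between 1 and 2 the median response was 1.12 in WT and 1.61 in cKO, and in the 1082 genes between 2 and 4 it was 2.36 and 2.97. The other bins were less stable. In the 698 genes from -2 to -1 the median interaction of -0.28 became 0.036 without SE-WT replicate 1. Of the 431 genes over 4, 303 had a group with 0 counts, and the median interaction of 0.73 became -0.30 without sham-WT replicate 2; of the 265 genes under -2, 127 had such a group, and the median of -1.41 became 0 without those genes and 1.77 without SE-WT replicate 3. Of the 1514 genes with both responses called, 1267 rose in both genotypes, 84.8% of them more in cKO, 241 fell in both, 51% of them more in cKO, and 6 moved in opposite directions. Besides Grip2, the protein-coding gene among the 6 was Cxxc4, an inhibitor of Wnt signalling, whose interaction of -1.83 was not called by edgeR (adjusted p = 0.11) and was called by DESeq2 (adjusted p = 0.00154).

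The interaction also ordered with gene length, which the rule did not use. Among 16371 protein-coding genes the median genomic span was 23.6 kb; it was 19.4 kb for the 19 called positive genes (2 of them on the X chromosome) and 162 kb for the 14 named called negative genes. Over all protein-coding genes the median interaction was 0.19 for spans under 10 kb, 0.10 from 10 to 30 kb, -0.03 from 30 to 100 kb, -0.15 from 100 to 300 kb and -0.40 over 300 kb. In WT the median response lay between -0.06 and 0.05 in all 5 classes, while in cKO it went from 0.17 in the shortest to -0.51 in the longest. The sham difference between genotypes ordered the other way, from -0.09 to 0.11. These medians come from the fit of all 13 libraries alone and were not recomputed without any library or with covariates. The part of neighbouring tissue and of sex in them was not tested.

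**Figure D5:**
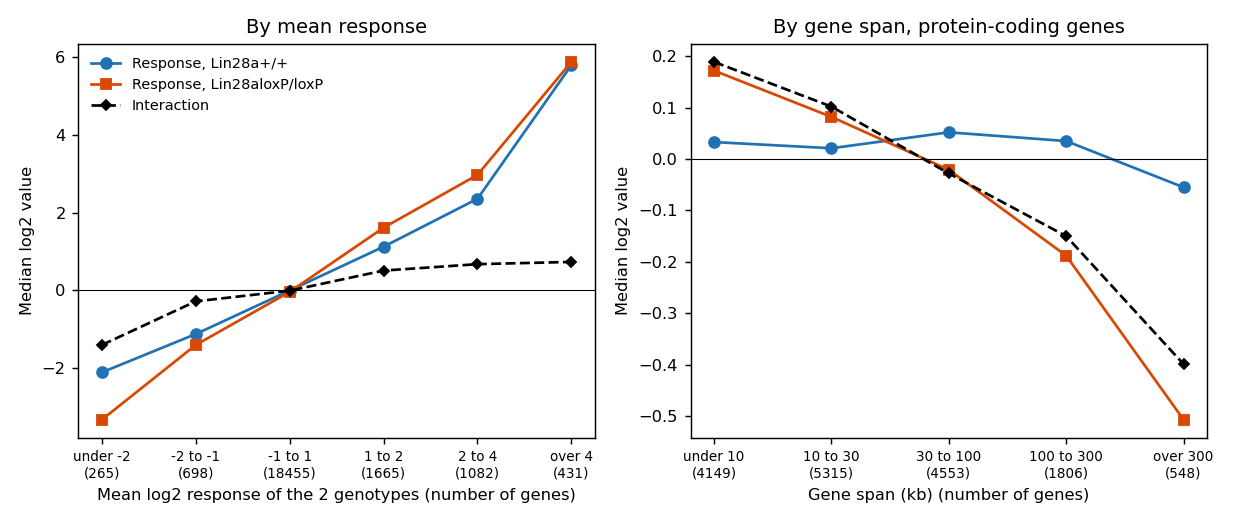
Median SE response in each genotype and median interaction (log2, vertical axes) for genes in bins of the mean response (left) and for protein-coding genes in classes of genomic span (right), with the number of genes in brackets. Between mean responses of 1 and 4 the cKO median lies above the WT median, and across spans the cKO median falls from 0.17 to -0.51 while the WT median stays between -0.06 and 0.05.

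Promoter sequence was described for the called genes, of which 26 of 36 had a RefSeq window; Tagln had none. Both strands were searched for AP-1 (TGANTCA), STAT (TTCNNNGAA), the CArG box and an E-box (CACGTG). Among all 27025 genes with a window, 8.97% held the AP-1 pattern, 9.55% the STAT pattern, 1.81% a CArG box and 8.09% the E-box. Of the 26 called genes the AP-1 pattern was in Ifitm10, Esrrg, Prss23 and Rnh1, the STAT pattern in Gfap and Prss23, the E-box in Rnh1, and the CArG box in 0. A gene with several annotated starts has several windows, up to 7 here. The Gfap window, chr11:102897151-102897450 on the minus strand of GRCm38.p6, is shown with the STAT pattern in capitals, whose first base is 2 bases before the start.
Gfap: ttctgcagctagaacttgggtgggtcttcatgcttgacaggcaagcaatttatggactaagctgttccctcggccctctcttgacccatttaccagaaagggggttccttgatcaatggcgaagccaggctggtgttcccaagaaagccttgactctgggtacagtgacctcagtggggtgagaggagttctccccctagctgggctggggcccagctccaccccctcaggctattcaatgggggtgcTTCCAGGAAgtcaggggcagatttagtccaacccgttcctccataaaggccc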

How the data were processed

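Hippocampal RNA was sequenced in 13 libraries, and the authors deposited whole-number read counts per gene, not normalized, for 45777 genes, of which 45679 IDs (99.8%) were found in the mouse reference. Per the submitters' processing notes bcl2fastq 2.20.0, Trimmomatic, HISAT2 2.1.0 and StringTie 2.1.3b were run against mm10; the strand setting of the counting is not given in the sources used here, so antisense and overlapping genes are uncertain. The deposited FPKM and TPM columns were not used.

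Genes with at least 10 counts in enough libraries and 15 in total (filterByExpr) were kept. One model with a mean for each of the 4 groups and no covariate was fitted to all libraries (edgeR 4.0.16, limma 3.58.1, R 4.3.3; TMM factors, robust quasi-likelihood test), p-values were adjusted by Benjamini-Hochberg over all genes tested, and 0.05 was the threshold. Log2 CPM used a prior count of 2. A gene is described where its interaction was called and 1 group reached a mean of 1 CPM, or where it was just outside the threshold. Genes that the paper names or stains for were added. The list members described were mostly those with the smallest interaction p in their list, so they are not typical of it. Gene lists (36, with 617 genes), members and rules were chosen with earlier results of these data known, so list counts are descriptions. Alternatives were DESeq2 1.42.0, limma voom, other normalizations and filters, covariates, a replicate block and fits without single libraries. The fits were tested on simulated data. Depth was 59659977 to 84354243 counts per library; floors cover counting error only. P-values measure the spread between the libraries. Replicate numbers were not shown to pair samples, as given in the closing section. One called gene is not reported here.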

Additional observations from a re-analysis of the deposited data

Results flagged for a closer look

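In the fit of all 13 libraries, edgeR's test of the interaction itself called 32 named genes, at an adjusted p of 0.0418 to 0.0493. No gene was called with the Xist or tissue covariates, with the replicate block, or without the 3 libraries with high striatal or thalamic levels. The same held when some single libraries were left out. The positive interactions on the log2 scale were Tagln at 3.83, Col12a1 at 2.29, Serpinf1 at 2.11, Col4a6 at 2.04, Prss23 at 1.84, Loxl3 at 1.53, Col4a5 at 1.35, Vim at 1.26, Hspb8 at 1.22, Cd9 at 1.22, Ifitm10 at 1.18, Pxdc1 at 1.16, Mt1 at 1.14, Tpm4 at 1.11, Gfap at 1.05, Tvp23a at 0.99, Rnh1 at 0.99, Nek6 at 0.97 and Itgam at 0.93. The negative ones were Hectd4 at -1.003, Mdga2 at -1.09, Xkr4 at -1.24, Snhg11 at -1.31, Mgat4c at -1.31, Acvr2b at -1.40, Dzank1 at -1.42, L1cam at -1.64, Shisa9 at -1.68, Kcnk9 at -1.69, Esrrg at -1.74, Dnm3 at -1.82 and Grip2 at -1.89.

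In the groups of 4, which only sham-cKO has, 79 sets of values were examined for a library far from the rest, and 5 stood apart, all in sham-cKO replicate 2. Chance gives about 1 in 20. They were L1cam at 152.1 CPM, Htr4 at 20.71 CPM, Lin28b at 12.39 CPM, the level of neutrophil and monocyte genes at -1.14 and the level of thalamic genes at 3.13, both levels on the log2 scale relative to sham. The same library had the highest sham level of thalamic genes, and the part of neighbouring tissue in these values was not tested.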

How the results depend on the processing

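Over 17 alternatives and 13 single libraries left out, 4064 of 4076 single-gene values kept their sign, 522 lost their call and 120 gained one. No interaction of a named gene was reversed, where a changed sign counts as a reversal only if the gene was called in either fit. List and bin medians count as moved when they shifted by more than 2 pooled SD of the level. The 36 calls became 731 with DESeq2, 20 with no filter, 1381 at an unadjusted p under 0.05 with 2-fold, 0 with the Xist covariate, 56 with title style as a term, 234 without the 2 libraries of that style, 0 with tissue covariates (2180 at an unadjusted p under 0.05 by edgeR), 0 without the 3 libraries with high striatal or thalamic levels, and 22 without mitochondrial rRNA and small RNA genes. In the same order of settings, the 21 genes larger in cKO became 367, 7, 525, 0, 36, 123, 0, 0 and 8, and 11 with upper-quartile factors. The 15 opposite genes became 351 with DESeq2, 788 at the unadjusted p, 0 with the Xist or tissue covariates and without the 3 libraries, and 96 without the 2. The 0 smaller genes became 13 with DESeq2, 1 with voom or the title term, 68 at the unadjusted p and 15 without the 2. The 1773 WT calls became 3042 with DESeq2 and 2782 with voom. The 0 sham calls became 27 with DESeq2 and 350 at the unadjusted p. The 162 calls after SE became 1282 with DESeq2, 409 with legacy=FALSE, 269 at a minimum count of 50, 1014 at the unadjusted p, 323 with the title term, 486 without the 2, 3 with tissue covariates and 65 without the 3. Medians moved for the LIN28 and let-7 list (-0.197 with no filter, -0.182 without the 2), GABA and glycine receptors (-0.572 with the Xist covariate, -0.718 without the 2, -0.667 with tissue covariates, -0.618 without the 3), oligodendrocyte precursors (0.687 without the 2, 0.797 without the 3), striatal genes (0.248 with tissue covariates, -0.643 without the 3), and, without the 3, myelin (0.747), cholesterol synthesis (0.037) and thalamic genes (0.256). The cause was not tested.

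With 1 library left out, interaction calls ranged from 0 to 177, larger from 0 to 115, smaller from 0 to 7, opposite from 0 to 62, calls in WT from 933 to 1973, sham from 0 to 1 and SE from 23 to 412. Medians ranged from -1.128 to -0.644 for GABA and glycine receptors, -0.886 to -0.535 for ionotropic glutamate receptors, -0.282 to 0.083 for LIN28 and let-7, -0.182 to 0.657 for neural progenitors and -4.557 to -0.859 for striatal genes. By mean response they ranged from -5.035 to 1.771 under -2, -0.71 to 0.036 from -2 to -1, -0.075 to 0.001 from -1 to 1, 0.381 to 0.588 from 1 to 2, 0.303 to 0.859 from 2 to 4 and -0.295 to 1.095 over 4.

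The replicate block gave 0 interaction calls by edgeR (2337 at an unadjusted p under 0.05), 0 larger and 0 opposite, and 37 calls after SE. The numbers were not shown to pair the samples: over 18 same-number pairs the correlation of deviations ran from -0.074 to 0.249, with 4 over 0.1. Pairs of different numbers were not set beside them, so whether the numbers mark pairs was not settled.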
